A study of Homo sapiens with 8 samples.

Results

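Pseudogenes are gene copies or former genes that are annotated as unable to make the protein of their source gene. Of the 1221 genes listed in at least 1 of 3 deposited tables of RNA changes in K-562 cells, 24 carry a GENCODE 29 gene type with the word pseudogene and are described here. Pseudogenes with symbols starting with ZNF, RNU1, RNVU1 or RNA5-8S were left out (3 genes). The members were 4 of the 257 listed genes with an annotation in the TASOR knockout table, 6 of 253 in the table of knockout cells with FLAG-TASOR, and 16 of 853 in the FLAG-TASOR2 table. ENO1P1 and CCDC162P were each listed in 2 tables, 22 pseudogenes in 1 table, and 0 in all 3.

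K-562 is an established human leukaemia cell line. Total RNA depleted of ribosomal RNA was sequenced from 8 libraries in 4 groups of 2, which the series calls biological replicates. The controls were parental wild-type cells with a negative sgRNA. The altered groups were TASOR KO cells, TASOR KO cells expressing a FLAG-TASOR transgene, and parental wild-type cells expressing a FLAG-TASOR2 transgene. Per the labels' protocols, cells transfected with CRISPR/Cas9 plasmids were sorted as single colonies, so a group can rest on few clones, and lentivirus carried either the transgene or an empty puromycin resistance vector. Whether the FLAG-TASOR2 cells also carried the negative sgRNA is not stated in these sources. The 3 comparisons share the same control libraries.

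Processed pseudogenes, also called retrocopies, arise when a messenger RNA is reverse transcribed by the LINE-1 machinery and inserted back into the genome, and they usually lack introns. Unprocessed pseudogenes are duplicated genes that keep their exon structure, and unitary pseudogenes are genes that lost their coding function without a working copy. TASOR belongs to HUSH, the human silencing hub, which is known to repress LINE-1 elements and other intronless transcribed DNA, and TASOR2 is its paralog. By GENCODE class, 9 members were processed, 10 unprocessed and 4 unitary, and 1 had the plain type pseudogene. Among all 15224 pseudogenes of the annotation, 70.1% are processed and 23.19% unprocessed. The number of pseudogenes that the authors tested is unknown, so these shares are not a comparison of the listed with the tested genes. RefSeq held 20 of the 24 and called all 20 pseudogenes, 13 of them transcribed.

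The sequence of a pseudogene bears on what its count measures, because reads from a near-identical copy can be assigned to either gene. The stretches below are 100 bases of the member's longest GENCODE 29 transcript beside the gene it matches, chosen at about the identity of the whole alignment, with capitals at the bases that differ. The first 2 pairs are retrocopies that were listed as higher with FLAG-TASOR2. AC005521.1 (chr7:124480873-124480972, hg38, plus strand) is shown with RPS2, which encodes a protein of the small ribosomal subunit, and LETM1P2 (chr19:58044774-58044873, plus strand) with LETM1, which encodes a protein of the inner mitochondrial membrane. AC005521.1 differs from RPS2 at 10 of the 100 bases and LETM1P2 from LETM1 at 8.
AC005521.1: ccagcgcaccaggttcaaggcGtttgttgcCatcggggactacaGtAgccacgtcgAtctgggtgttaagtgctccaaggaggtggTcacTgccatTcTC
RPS2: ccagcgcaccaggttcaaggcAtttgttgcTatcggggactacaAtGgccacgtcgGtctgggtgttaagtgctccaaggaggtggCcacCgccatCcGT
LETM1P2: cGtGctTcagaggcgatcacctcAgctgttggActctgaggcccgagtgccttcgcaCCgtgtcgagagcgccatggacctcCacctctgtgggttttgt
LETM1: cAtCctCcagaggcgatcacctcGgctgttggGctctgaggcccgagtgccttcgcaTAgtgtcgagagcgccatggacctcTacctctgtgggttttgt

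The next pairs are shown because these members were listed as lower, with all counts of the altered cells taken to be at 0. ENO1P1 (chr1:236483413-236483512, plus strand) is a retrocopy of ENO1, which encodes the glycolytic enzyme enolase, and differs from it at 7 bases. HSPA7 (chr1:161606649-161606748, plus strand) is a duplicate of HSPA6, a heat shock gene of the HSP70 family, and differs from it at 2 bases.
ENO1P1: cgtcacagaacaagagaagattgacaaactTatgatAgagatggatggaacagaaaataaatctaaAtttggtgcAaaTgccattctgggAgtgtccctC
ENO1: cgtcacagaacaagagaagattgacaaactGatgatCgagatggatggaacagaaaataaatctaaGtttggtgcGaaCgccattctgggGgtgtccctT
HSPA7: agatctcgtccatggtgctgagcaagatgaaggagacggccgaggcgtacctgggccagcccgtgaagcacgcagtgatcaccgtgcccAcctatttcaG
HSPA6: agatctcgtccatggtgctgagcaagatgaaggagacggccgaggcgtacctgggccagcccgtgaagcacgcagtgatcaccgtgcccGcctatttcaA

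The last pairs are copies whose near-identical partner was listed in the same table. MTATP6P1 (chr1:633696-633795, plus strand) is a nuclear copy of MT-ATP6, the mitochondrial gene of an ATP synthase subunit, and differs from it at 1 base here. SMG1P1 and SMG1P2 are duplicates of SMG1, which encodes a kinase of nonsense-mediated RNA decay, and differ from each other at 3 bases in this stretch (positions 210 to 309 of the SMG1P1 transcript).
MTATP6P1: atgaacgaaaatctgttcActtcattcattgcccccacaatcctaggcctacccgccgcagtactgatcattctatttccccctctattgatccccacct
MT-ATP6: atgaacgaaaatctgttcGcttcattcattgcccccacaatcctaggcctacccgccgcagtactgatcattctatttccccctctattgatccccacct
SMG1P1: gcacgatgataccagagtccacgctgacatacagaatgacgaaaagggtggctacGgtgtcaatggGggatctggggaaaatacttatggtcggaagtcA
SMG1P2: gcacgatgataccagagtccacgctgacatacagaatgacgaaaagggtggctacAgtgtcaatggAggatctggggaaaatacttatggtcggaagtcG

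Over the whole alignments, identity to the best coding match was 90.5% for AC005521.1 (884 alignment positions, gaps included), 91.7% for LETM1P2 (2176 positions), 93.2% for ENO1P1 (1304 positions), 98.2% for HSPA7 (1933 positions) and 98.5% for MTATP6P1 (681 positions). RPL36AP37, a retrocopy of the ribosomal protein gene RPL36A, was identical to it over all 321 bases. SMG1P1 matched SMG1P3 at 99.3% and SMG1P2 matched SMG1P5 at 99.8%. To put this on one scale, every window of 50 bases of a member's longest transcript was searched for in the transcripts of all other genes. Genes annotated over the same place as the member count as other genes here. Of the 23 members with a sequence, 9 had over 50% of their windows in another gene, 4 had 10 to 50%, 7 had under 10% and 3 had none, CCDC162P, SMPD5 and VN2R19P. Among the listed protein-coding genes, 82 of 985 had over 50% (8.325%).

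**Figure D1:**
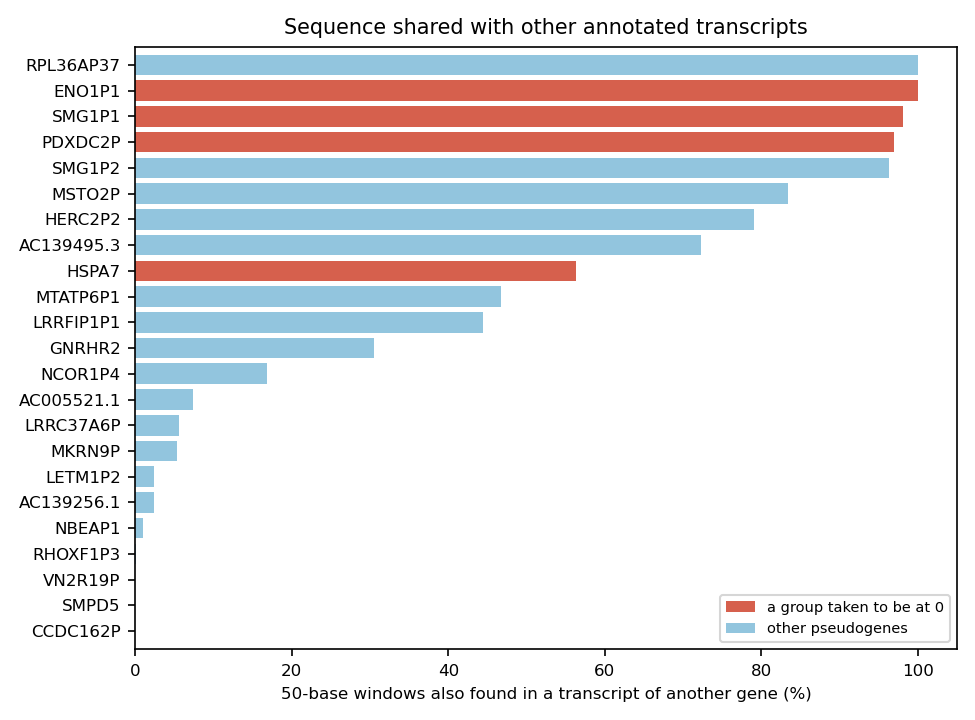
Bars give, for each of the 23 pseudogenes with a transcript sequence, the percentage of 50-base windows of its longest transcript that also occur in a transcript of another gene. Red bars are the 4 members with a group taken to be at 0, which lie between 56.3% for HSPA7 and 100% for ENO1P1. Genes that overlap a member in the same place are counted, such as EDARADD for ENO1P1.

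The values below come from the authors' deposited tables, which hold for each gene the log2 fold change, its mean level on a log2 scale (logCPM) and the p before and after adjustment, and no value per library. To be listed, a gene had to have an absolute log2 fold change over 1, a logCPM over 1 and an unadjusted p under 0.05, so every member had to differ to be listed, and nothing is known here of the level of a gene that is missing from a table. Values in parentheses after a fold change are approximate SEs derived from the deposited F score. An approximate level of each group as CPM, counts scaled to library size, was computed from the deposited logCPM and fold change, as the mean over the libraries of a group, with no SD. Counts of both libraries of a group were taken to be at 0 where the degrees of freedom of a gene's F-test were lower by 1 than usual, which rests on edgeR having made the tables, and such a gene is given no fold. This held for 9 of 268, 8 of 261 and 14 of 884 listed genes. For genes listed in a pair of tables, the control level computed from each differed by an SD of 0.17 to 0.24 on the log2 scale (58 to 99 genes). The median difference was 0.05 to 0.11, and single genes differed by -0.99 to 0.85, so the levels are rough. These CPM are not per length, so they do not rank the genes against each other. The depth of the libraries is unknown. The sources used here do not say whether reads were counted by strand.

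No pseudogene passed an adjusted p of 0.05 of the authors' F-test in any table (0 of 4, 0 of 6 and 0 of 16, all with an unadjusted p below 0.05). The share of genes that passed was 0.00715% of the 13992 tested in the knockout, of which 1.92% were listed, 0.0357% of the 14001 tested with FLAG-TASOR2, of which 6.31% were listed, and 0% of the 261 listed with FLAG-TASOR, where the number tested could not be recovered. Members are therefore called listed as higher or lower, with their values. As checks of the labels in the authors' deposited tables, TASOR was listed as lower in the knockout at -1.08 (0.23) and TASOR2 as higher with FLAG-TASOR2 at 2.26 (0.27), while TASOR was not listed in knockout cells with FLAG-TASOR. Of 3 myeloid markers, only ITGAM was listed in the authors' deposited tables, as lower in all 3 against the same control libraries. Its log2 fold change there was -2.44 (0.91) in the knockout, -2.39 (0.70) with FLAG-TASOR and -4.62 (0.78) with FLAG-TASOR2. Of 4 megakaryocyte markers, 2 were listed as higher with FLAG-TASOR2 in the authors' deposited table, GP1BB at 1.59 (0.26) and TUBB1 at 1.77 (0.25). Of 10 erythroid markers, the authors' deposited tables listed HBE1 as higher with FLAG-TASOR at 2.24 (0.57) and HBZ as higher with FLAG-TASOR2 at 1.38 (0.44). No T cell, B cell or fibroblast marker was listed. The part of these shifts in the members' values was not tested, and since unlisted genes have no value, the cell type was not checked.

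**Figure D2:**
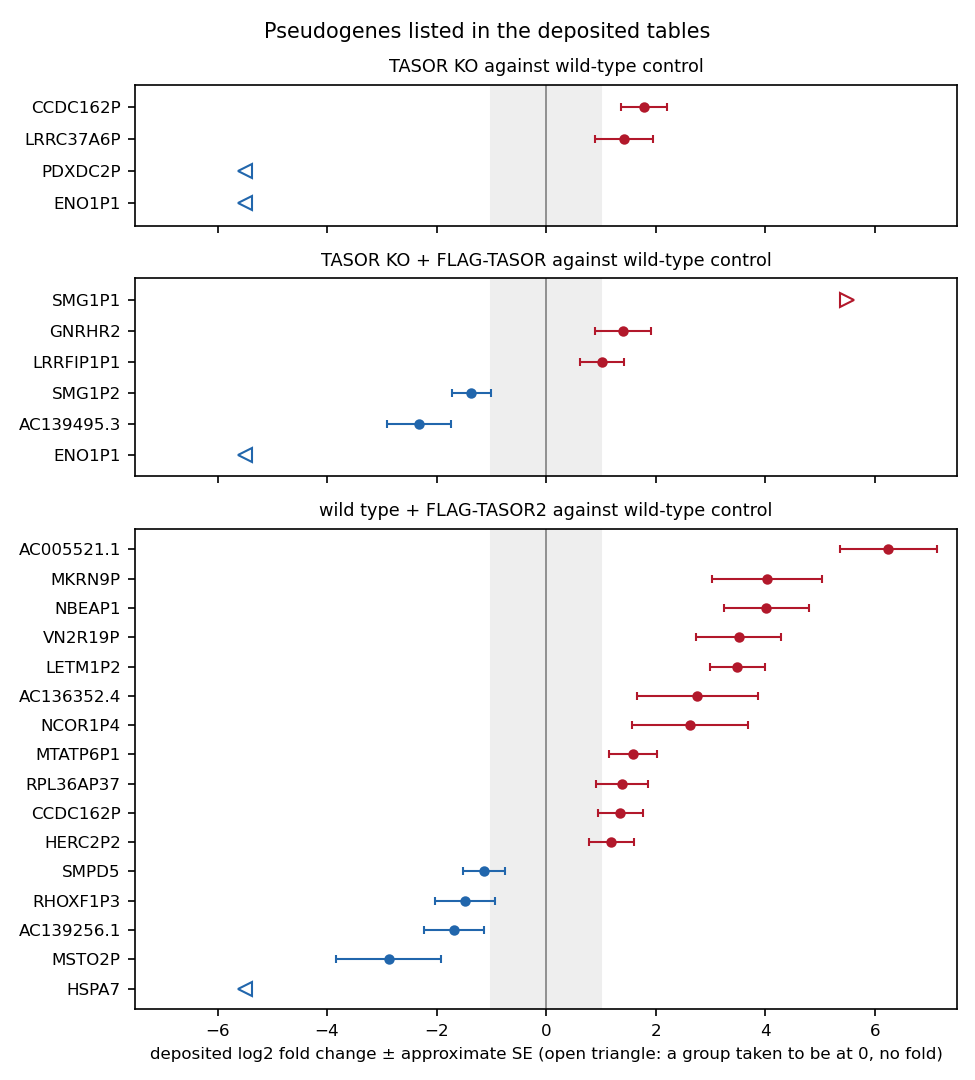
Points give the deposited log2 fold change of each pseudogene against the wild-type controls, with the approximate SE as bars, in 3 panels for the 3 comparisons. Red is higher, blue lower, the grey band is the range of -1 to 1 that the tables leave out, and open triangles mark the direction of genes with a group taken to be at 0, at a place that stands for no value.

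The first comparison asked which RNAs differed when TASOR was lost. Of its 4 pseudogenes, 2 were listed as higher and 2 as lower, where 51.1% of all 268 listed genes were higher and 48.9% lower. The balance moved to 5 higher and 2 lower with the left-out symbols kept, and to 3 higher and 5 lower with newer identifiers added by symbol. Their median log2 fold change in the authors' deposited table was -2.88, against 1.01 over all listed genes, and the 2 lower members, which set that median, have no usable fold. Both members listed as higher were expressed above the median of the table, and both listed as lower had a logCPM below it.

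CCDC162P, a unitary pseudogene on chromosome 6 (ENSG00000203799, 109165831 to 109355063) related to coiled-coil genes, was the longest member, with 47 exons in its longest transcript. Its approximate level was 4.07 CPM in the controls and 14.0 CPM in the knockout, a log2 fold change of 1.79 (0.43, p 0.0075) in the authors' deposited table. None of its 6702 windows occurs in another annotated transcript. Within 1 Mb the listed gene FIG4, which encodes a phosphoinositide phosphatase, went the other way at -1.16 (0.33) in the authors' deposited table. LRRC37A6P, a processed pseudogene of the leucine-rich repeat family LRRC37 on chromosome 10 (ENSG00000230445, 27246350 to 27259455), was at 4.16 CPM in the controls and 11.2 CPM in the knockout. That is a log2 fold change of 1.42 (0.53, p 0.0399) in the authors' deposited table. Its exons overlap those of AL160291.1, a long noncoding RNA on the opposite strand.

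ENO1P1, on chromosome 1 (ENSG00000244457, 236483165 to 236484468), was listed as lower with all knockout counts taken to be at 0 and a control level of about 4.66 CPM (p 0.0058 in the authors' deposited table). The whole of its single exon lies in an exon of EDARADD, an adaptor gene of ectodysplasin signalling on the same strand, and EDARADD itself was not listed. PDXDC2P, a duplicate of the decarboxylase-like gene PDXDC1 on chromosome 16 (ENSG00000255185, 70010751 to 70065945), was also taken to be at 0 in the knockout, from about 4.15 CPM in the controls (p 0.00339 in the authors' deposited table). It shared 96.9% of its windows with other transcripts, mainly with the readthrough gene PDXDC2P-NPIPB14P in the same place. Both members listed as lower thus had nearly all windows in another gene, while CCDC162P had none and LRRC37A6P 5.54%. The part of shared sequence in these values was not tested.

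The next comparison set knockout cells with the FLAG-TASOR transgene beside these controls. Its table listed 3 pseudogenes as higher and 3 as lower, where 32.6% of all 261 listed genes were higher and 67.4% lower. The median log2 fold change of the members was -0.17 and that of all listed genes -1.36 in the authors' deposited table. With 3 members on each side, their median falls in the range of -1 to 1, where no gene is listed, and is no member's value. Leaving out members whose exons overlap another gene's leaves 0 higher and 2 lower.

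Both listed SMG1 duplicates, on chromosome 16, went in opposite directions. SMG1P1 (ENSG00000237296, 22437008 to 22492220) was listed as higher with all control counts taken to be at 0 and about 21.1 CPM in the altered cells (p 0.00018 in the authors' deposited table), the smallest p of any member. SMG1P2 (ENSG00000205534, 29527568 to 29594966) was listed as lower, at 17.4 CPM in the controls and 6.74 CPM in the altered cells, a log2 fold change of -1.36 (0.36, p 0.0109) in the authors' deposited table. Of the windows of SMG1P1, 98.1% occur in other transcripts, spread over 12 genes, and 40.5% occur in SMG1P2. Windows of 100 bases gave 96.7% for SMG1P1. Exons of SMG1P1 also overlap those of NPIPB5 on the same strand and of CDR2 and RRN3P3 on the opposite strand, none of them listed. Neither SMG1P1 nor SMG1P2 was listed in the other tables, and neither was SMG1 in any.

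ENO1P1 was listed as lower here too, again with all counts of the altered cells taken to be at 0 and about 4.51 CPM in the controls (p 0.00519 in the authors' deposited table). Both comparisons use the same controls, so this repeat is no independent evidence. AC139495.3, a single-exon unprocessed pseudogene on chromosome 5 (ENSG00000250138, 69631963 to 69636399), was at 5.10 CPM in the controls and 1.02 CPM in the altered cells, a log2 fold change of -2.32 (0.58, p 0.00929) in the authors' deposited table. It matched another pseudogene of chromosome 5, AC131392.2, at 98.8% over 4335 alignment positions, and 72.3% of its windows occur in other transcripts.

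LRRFIP1P1, a retrocopy of LRRFIP1 on chromosome 3 (ENSG00000240429, 179259028 to 179261273), was listed as higher, at 11.5 CPM in the controls and 23.3 CPM in the altered cells. The log2 fold change of 1.02 (0.40, p 0.0488) in the authors' deposited table was the smallest of any member. It lies within KCNMB3, which encodes a regulatory subunit of a calcium-activated potassium channel, on the same strand, and 37.1% of its windows are part of a KCNMB3 transcript. KCNMB3 was also listed as higher in the authors' deposited tables, by 1.36 (0.46) in this comparison and by 1.67 (0.46) for the knockout. GNRHR2, a unitary pseudogene of a gonadotropin-releasing hormone receptor on chromosome 1 (ENSG00000211451, 145919013 to 145925341), was at 2.25 CPM in the controls and 5.96 CPM in the altered cells. Its log2 fold change was 1.41 (0.51, p 0.0374) in the authors' deposited table. GNRHR2 lies within RBM8A, a gene of the exon junction complex on the opposite strand that was not listed, and their exons overlap. GPR89A, a Golgi pH regulator gene 248 kb away, was listed as higher at 1.28 (0.29) in the authors' deposited table.

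The last comparison set wild-type cells with the FLAG-TASOR2 transgene beside the controls. Its table listed 11 pseudogenes as higher and 5 as lower, where 40.5% of all 884 listed genes were higher and 59.5% lower. The median log2 fold change of the members was 1.49 and that of all listed genes -1.20 in the authors' deposited table, and 238 of the 723 listed protein-coding genes were higher (32.9%). These shares are descriptions, since the members were chosen with results of these data known. AC005521.1, MKRN9P, NBEAP1, VN2R19P, LETM1P2 and AC136352.4 had control levels of 0.101 to 1.02 CPM, under the logCPM threshold. They could be listed only as higher. MSTO2P, AC139256.1 and HSPA7 were under it with FLAG-TASOR2 and could be listed only as lower. Of the 11 and 5, 5 and 1 had an unadjusted p below 0.01, and 3 and 1 reached the median logCPM of the table. With pseudogenes that carry a newer identifier added by symbol, 13 were higher and 8 lower.

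Of the 6 retrocopies listed with FLAG-TASOR2, 5 were higher and 1 lower, and of the 7 members with a single exon 6 were higher. In the knockout, 1 retrocopy was higher and 1 lower, and the single-exon members split in the same way. With FLAG-TASOR, 1 retrocopy was higher and 1 lower, and of the single-exon members 1 was higher and 2 were lower. The share listed as higher among all listed single-exon genes was not computed, so these counts are descriptions only. AC005521.1, MKRN9P and LETM1P2 were under the logCPM threshold in the controls, so they could be listed only as higher. AC139256.1 and HSPA7 were under it with FLAG-TASOR2, so they could be listed only as lower. AC005521.1, the RPS2 retrocopy on chromosome 7 (ENSG00000213296, 124480524 to 124481395), had the highest fold change of the members that have one. Its approximate level was 0.101 CPM in the controls and 7.65 CPM with FLAG-TASOR2, a log2 fold change of 6.24 (0.89, p 0.000408, adjusted p 0.125) in the authors' deposited table. It overlaps no other gene, and 7.41% of its windows occur elsewhere. Both other listed genes within 1 Mb were higher too, the antisense RNA AC006148.1 at 5.94 (0.81) and GPR37, an orphan G-protein-coupled receptor gene, at 4.64 (0.88) in the authors' deposited table. LETM1P2, on chromosome 19 (ENSG00000268660, 58044592 to 58046769), was at 1.02 CPM in the controls and 11.5 CPM with FLAG-TASOR2. Its log2 fold change was 3.49 (0.50, p 0.000441, adjusted p 0.125) per the authors' deposited table, and 2.44% of its windows occur elsewhere, all in LETM1.

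MKRN9P, a retrocopy of the ubiquitin ligase gene MKRN1 on chromosome 12 (ENSG00000258128, 87782163 to 87784568), was at 0.262 CPM in the controls and 4.296 CPM with FLAG-TASOR2. That is a log2 fold change of 4.03 (1.01, p 0.00706) in the authors' deposited table, with 5.35% of windows shared and no other listed gene within 1 Mb. NCOR1P4, a fragment of the nuclear corepressor gene NCOR1 with 186 bases on chromosome 21 (ENSG00000279864, 9558970 to 9559155), was at 4.72 and 29.2 CPM, a log2 fold change of 2.63 (1.07, p 0.0487) in the authors' deposited table. RPL36AP37, on chromosome 11 (ENSG00000244398, 16974693 to 16975013) within an intron of PLEKHA7, was at 3.47 and 9.07 CPM. The difference on the log2 scale was 1.39 (0.48, p 0.0277) in the authors' deposited table, and all of its 272 windows occur in RPL36A, so its counts cannot be told apart from reads of RPL36A by sequence. RPL36A was not listed. The retrocopy listed as lower, AC139256.1 on chromosome 16 (ENSG00000260735, 15094411 to 15109197), was at 5.57 and 1.74 CPM, a log2 fold change of -1.68 (0.55, p 0.0216) in the authors' deposited table. It lies within PDXDC1 on the same strand, and 34.9% of its transcript aligned with EIF5AL1, a gene related to a translation factor, at 85.5% identity. GENCODE classes AC139256.1 as processed, though its longest transcript has 4 exons. Its exons overlap those of NPIPP1 and PKD1P6-NPIPP1 on the opposite strand.

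**Figure D3:**
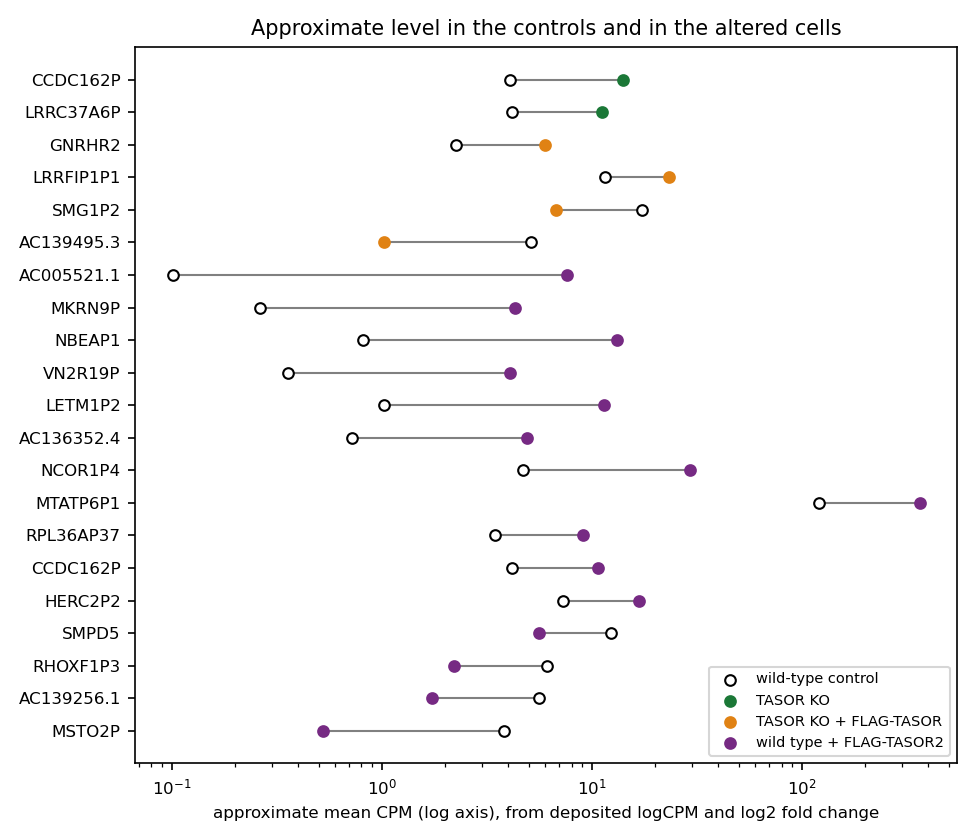
Open points give the approximate mean CPM in the wild-type controls and filled points that in the altered cells, on a log axis, for the 21 listings of pseudogenes with a fold. With FLAG-TASOR2, AC005521.1 goes from 0.101 to 7.65 CPM and MKRN9P from 0.262 to 4.296 CPM, and levels are not compared between genes.

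The members of the unprocessed class split evenly, with 3 listed as higher and 3 as lower. Those listed as higher include MTATP6P1, the nuclear copy of a mitochondrial gene. NBEAP1, a partial duplicate of the neurobeachin gene NBEA on chromosome 15 (ENSG00000258590, 20657638 to 20688408), was at 0.815 CPM in the controls and 13.2 CPM with FLAG-TASOR2. Its log2 fold change was 4.02 (0.77, p 0.00202, adjusted p 0.184) per the authors' deposited table, and 1.00% of its windows occur in NBEA. All 3 other listed genes within 1 Mb were higher and none is annotated as protein-coding, LINC01193 at 5.70 (0.82), AC023310.4 at 4.40 (0.98) and AC131280.1, which overlaps NBEAP1 on the opposite strand, at 2.91 (1.03), in the authors' deposited table. HERC2P2, a duplicate of the ubiquitin ligase gene HERC2 on the same chromosome (ENSG00000276550, 22495570 to 22590815), was at 7.33 and 16.7 CPM. Its log2 fold change was 1.19 (0.41, p 0.0264) in the authors' deposited table, and 79.1% of its windows occur in other HERC2 copies, mostly in HERC2P9.

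MTATP6P1 (ENSG00000248527, 633696 to 634376 on chromosome 1) was at 121 CPM in the controls and 364 CPM with FLAG-TASOR2, a log2 fold change of 1.59 (0.44, p 0.0108) in the authors' deposited table. Its source MT-ATP6 was listed as higher by a similar amount, 1.43 (0.31), with a logCPM of 11.28 against 7.92 for the copy, in the authors' deposited table. This was the single case in which the source gene of a member, by symbol or by best transcript match, was listed in the same table. Of the MTATP6P1 windows, 46.7% occur in MT-ATP6, and 11.9% of windows of 100 bases. The part of mitochondrial reads in the counts of the copy was not tested.

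HSPA7, on chromosome 1 (ENSG00000225217, 161606291 to 161608217), was listed as lower with all FLAG-TASOR2 counts taken to be at 0 and about 4.23 CPM in the controls (p 0.00635 in the authors' deposited table). Of its windows, 56.3% occur in HSPA6, which was not listed. MSTO2P, a duplicate of MSTO1, a gene of mitochondrial distribution, on chromosome 1 (ENSG00000203761, 155745829 to 155750137), was at 3.83 and 0.523 CPM. This is a log2 fold change of -2.88 (0.96, p 0.0243) in the authors' deposited table, with 83.4% of windows shared with MSTO1, which it matches at 99.5%. RHOXF1P3, a duplicate in the reproductive homeobox cluster of chromosome X (ENSG00000282933, 119942834 to 119992810), was at 6.13 and 2.20 CPM, a log2 fold change of -1.48 (0.54, p 0.0345) in the authors' deposited table. The homeobox gene RHOXF2B, 77.9 kb away, was listed as lower as well, at -1.03 (0.41) in the authors' deposited table.

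Of the 3 unitary members, 2 were listed as higher and 1 as lower. VN2R19P, a remnant of a vomeronasal pheromone receptor gene on chromosome 19 (ENSG00000235974, 58012589 to 58025926), was at 0.356 CPM in the controls and 4.06 CPM with FLAG-TASOR2, a log2 fold change of 3.51 (0.78, p 0.00407) in the authors' deposited table. CCDC162P was at 4.16 and 10.6 CPM, a log2 fold change of 1.36 (0.41, p 0.0154) in the authors' deposited table, beside 1.79 (0.43) in the knockout against the same controls. SMPD5, a sphingomyelinase gene annotated as unitary, on chromosome 8 (ENSG00000204791, 144049079 to 144051522), was at 12.3 and 5.599 CPM, a log2 fold change of -1.14 (0.38, p 0.0245) in the authors' deposited table. OPLAH, which encodes 5-oxoprolinase and overlaps SMPD5 on the opposite strand, has -1.15 (0.27) as its log2 fold change in the authors' deposited table. AC136352.4, on the scaffold KI270727.1 (ENSG00000278673, 20741 to 22392), was at 0.720 and 4.89 CPM, a log2 fold change of 2.76 (1.11, p 0.047) in the authors' deposited table, and its sequence was not analysed here.

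Several members lay in runs of listed genes of the same sign. VN2R19P and LETM1P2 are 18.7 kb apart at the distal end of chromosome 19. Each had 20 other listed genes within 1 Mb, all higher, from ZNF329 at 1.05 (0.38) to ZIK1 at 4.10 (0.75) in the authors' deposited table. Most are zinc finger genes, and LETM1P2 lies within ZSCAN1 on the same strand, whose log2 fold change the authors' deposited table gives as 3.07 (0.83). VN2R19P and LETM1P2 have the same neighbours apart from each other, so this is a single run that enters the counts below for both. SMPD5 had 16 listed genes within 1 Mb, all lower, from HGH1 at -1.02 (0.14) to FOXH1 at -2.98 (0.56) in the authors' deposited table. In all, 8 of the 16 members had a listed gene of the same sign within 1 Mb, against 50.6% of all 853 listed genes with a position. The count was 3 of 6 with FLAG-TASOR, against 21.7%, and 0 of 4 in the knockout, against 31.5%. Within 100 kb the counts were 6, 1 and 0, against 24.4%, 7.51% and 17.9%. For neighbours of the opposite sign, the share over all listed genes was not computed, so their counts are descriptions only. Such a listed gene lay within 1 Mb of 2, 1 and 1 members. With FLAG-TASOR2 these were NPIPA3 by AC139256.1 at 2.65 (0.81) and the interferon-stimulated gene ISG15 by MTATP6P1 at -1.34 (0.50) in the authors' deposited table. With FLAG-TASOR it was AC133550.1 by SMG1P2 at 4.16 (1.095) in the authors' deposited table, and in the knockout FIG4 by CCDC162P, given above.

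**Figure D4:**
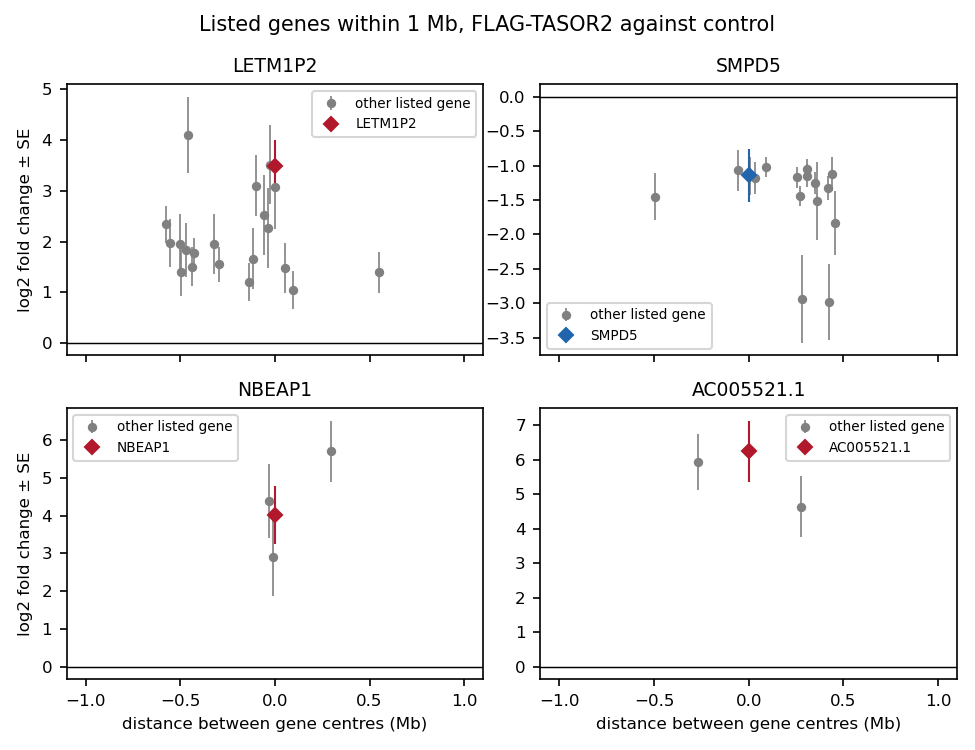
For the 4 loci drawn, which were picked for neighbours of the same sign, each panel plots the deposited log2 fold change (± approximate SE) of listed genes within 1 Mb of LETM1P2, SMPD5, NBEAP1 or AC005521.1 against the distance between gene centres, in the FLAG-TASOR2 comparison. The diamond is the pseudogene at 0, and every neighbour lies on the same side of the zero line as the pseudogene (20, 16, 3 and 2 genes).

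The members differed in how much of their sequence is their own. The 4 genes with a group taken to be at 0 had 56.3% to 100% of windows in another gene, with a median of 97.5%. Part of this is overlap in the same place and not a copy elsewhere. ENO1P1 shared its 100% with EDARADD, whose exon contains it, and PDXDC2P shared 96.4% with the overlapping readthrough gene PDXDC2P-NPIPB14P. The other 19 members with a sequence had a median of 7.41%, with a range of 0 to 100%, and 5 of them were over 50%. Over all listed genes the same held in part, since 17 of 26 genes with a group at 0 were over 50%, against 118 of 1169 listed genes (10.09%). Without pseudogenes, 13 of 22 genes with a group at 0 were over 50% (59.09%). With pseudogenes counted, the share in the FLAG-TASOR2 table was 6 of 13 genes, against 7 of 8 in the knockout and 6 of 7 with FLAG-TASOR. The 5 members with a deposited log2 fold change over 3 and a usable fold, AC005521.1, MKRN9P, NBEAP1, VN2R19P and LETM1P2, had 0 to 7.41% of windows shared. All came from the FLAG-TASOR2 table, which held 16 members, against 4 in the knockout and 6 with FLAG-TASOR. Their control levels were 0.101 to 1.02 CPM. They thus passed the logCPM threshold of 1 only through the FLAG-TASOR2 cells, so the listing itself set their direction. The same held for AC136352.4, at 0.720 CPM in the controls. MSTO2P, AC139256.1 and AC139495.3 passed only through the controls, at 0.523, 1.74 and 1.02 CPM in the altered cells. Each member with a group at 0 passed only through the other group, so its direction was set likewise. The search set the longest transcript of each gene against all annotated transcripts of other genes in the sense direction, and the read length of the libraries is not stated in these sources.

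By symbol, 1 member is a ribosomal protein pseudogene (RPL36AP37) and 1 a nuclear copy of a mitochondrial gene (MTATP6P1). The symbol rule misses AC005521.1, the RPS2 retrocopy, which has a clone-based name. A list of symbol prefixes of abundant genes such as GAPDH, ACTB, TUBA and HSP matched 1 member, HSPA7, whose source is a heat shock gene. A list of prefixes of some clustered families, such as protocadherin, HLA, globin and olfactory receptor genes, matched 0, and it held no prefix for the RHOX or vomeronasal receptor genes. Of the 24 members, 15 lie within or across another gene, and in 12 of these exons overlap exons of that gene on either strand. The same share over all listed genes was not computed, so these counts are not a trait of the members. Genes that contain a member on the same strand and were listed in the same direction in the same table were KCNMB3 for LRRFIP1P1 and ZSCAN1 for LETM1P2. Genes that overlap a member on the opposite strand and were listed likewise were AC131280.1 for NBEAP1 and OPLAH for SMPD5.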

How the data were processed

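Ribosomal RNA-depleted RNA of 8 K-562 libraries (4 groups of 2) was compared by the authors, and 3 tables of listed genes were analysed. Per the submitters' processing notes, STAR 2.7.8, Salmon, edgeR, DESeq2 and hg38 were used, with no role given. Per the file headers, the deposited columns hold log2 fold changes, log2 mean CPM, the F score of a test, and its p-value before and after adjustment, with the column names of an edgeR F-test, and which tool made them is not stated. No model was refitted, since no value per library was used here, and nothing says whether the libraries of a group are separate clones, so p measures how these libraries vary, which may be technical.

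SEs were taken as the size of the log2 fold change over the root of F. Degrees of freedom were solved from F and p (scipy 1.17.1), and a gene lower by 1 was taken to have a group at 0, as holds if the authors used edgeR, and given no fold. The degrees of freedom, the mark for a group at 0 and the group levels were checked on values simulated under the same assumptions. Such a check cannot test the assumptions themselves, and the SEs were not part of it. Group levels assume that the deposited CPM is the mean of both groups. Annotation and transcripts were GENCODE 29 (GRCh38, the assembly of hg38), matched by identifier. Matches used BLAST+ 2.17.0 (word size 11) and exact 50-base windows. Named genes were the members, by extremes, p, level and repeat listing, with their source, host and neighbouring genes. Members and lists were chosen with earlier results of these data known.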

Additional observations from a re-analysis of the deposited data

How the results depend on the processing

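Of 63 recomputed counts under the alternatives, 43 stayed within 1.5 times the reported count and 20 moved further, each through the genes that the alternative adds or removes. Keeping the left-out symbols gave 5 higher in the knockout. An unadjusted p below 0.01 left 1 higher in the knockout, 1 higher with FLAG-TASOR, and 5 higher and 1 lower with FLAG-TASOR2. An absolute log2 fold change above 1.5 left 1 higher in the knockout, 1 higher with FLAG-TASOR and 3 lower with FLAG-TASOR2. A logCPM at or above the table median left 0 lower in the knockout, 1 lower with FLAG-TASOR, and 3 higher and 1 lower with FLAG-TASOR2. Without exon overlap, 1 higher and 0 lower were left in the knockout, 0 higher with FLAG-TASOR and 1 lower with FLAG-TASOR2. Without genes with a group at 0, 0 lower were left in the knockout. Adding newer identifiers by symbol, an alternative chosen after seeing the data, gave 5 lower in the knockout and 8 lower with FLAG-TASOR2. Within 100 kb, 1 member with FLAG-TASOR had a neighbour of the same sign. At an adjusted p of 0.1, 0 members passed in each table.

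No paired analysis was possible because the tables hold no value per library, and for the same reason leaving out each replicate was not run. Depth per library is unknown.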

Other observations

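A further 10 genes in the tables carry identifiers newer than GENCODE 29, so that they fall outside the members, while their symbols are those of GENCODE 29 pseudogenes, all of the transcribed unprocessed type. They were picked out after the data were seen, and none passed an adjusted p of 0.05 (0 of 10, all with an unadjusted p below 0.05 of the authors' F-test).

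In the knockout, EMBP1, a duplicate of the adhesion gene EMB, was listed as higher, with approximate levels of 2.20 CPM in the controls and 10.9 CPM in the altered cells and a log2 fold change of 2.31 (SE about 0.48) in the authors' deposited table. Listed as lower were TMEM191A at -2.80 (0.70), ALOX12P2, a copy of a lipoxygenase gene, at -1.91 (0.51), and AMZ2P1, a copy of a metallopeptidase gene, at -1.39 (0.53), in the authors' deposited table. With FLAG-TASOR, CROCCP3, a copy of the rootletin gene, was listed as higher at 1.86 (0.64) in the authors' deposited table. With FLAG-TASOR2, DPY19L2P2 was listed as higher at 2.91 (0.78) and C2orf27A at 1.84 (0.68) in the authors' deposited table. ADCY10P1 was listed as lower there at -2.96 (0.86), GBAP1, a copy of the glucocerebrosidase gene, at -2.01 (0.79), and BTN2A3P, a butyrophilin copy, at -1.63 (0.55), in the authors' deposited table. None of the 10 was listed in a second table.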
